A study of Mus musculus with 8 samples.

Results

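Nuclear genes of the respiratory chain were described by their transcript levels in splenic myeloid cells. The members were all genes of the deposited expression table whose symbols begin with Nduf, Sdha to Sdhd, Uqcr, Cox followed by a digit, or Atp5. The pattern matched 110 of the 23084 genes. The 7 symbols marked -ps were left out, with means between 0.275 and 15.8, and 103 genes remained. All 103 are annotated as protein-coding. They comprise 74 subunits, 21 assembly factors, 5 tissue isoforms of complex IV and 3 other genes (Cox7a2l, Atp5s and Atp5sl).

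The respiratory chain lies in the inner mitochondrial membrane. Complexes I (NADH dehydrogenase) and II (succinate dehydrogenase) pass electrons to ubiquinone, complex III passes them on to cytochrome c, and complex IV (cytochrome c oxidase) passes them to oxygen. Complexes I, III and IV pump protons, and complex V (ATP synthase) uses the proton gradient to make ATP. Most subunits are encoded in the nucleus and imported, while complexes I, III, IV and V each also hold subunits that mitochondrial DNA encodes. Assembly factors help to build a complex and are absent from the finished enzyme. Mature neutrophils are known for few mitochondria and a largely glycolytic metabolism, whereas monocytes keep more respiration.

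RNA was sequenced from CD11b+Ly6C+ (monocytic) and CD11b+Ly6G+ (granulocytic) cells that were sorted from spleens of C57BL/6 mice aged 6-8 weeks. The wt and Lmna KO mice gave 4 groups of 2 samples. In the KO mice, Lmna flox/flox alleles are recombined by Cre from the Lyz2 locus (LysM-Cre), which is active in monocytes, granulocytes and macrophages and not in lymphocytes. The subset was taken from the sample titles, because the cell-marker label reads CD11b+Ly6C+ for each of the 8 samples.

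The values analysed were the authors' mean normalized signal per gene, which is pooled over libraries and carries no SD and no n. The table is named for the comparison within CD11b+Ly6C+ cells. In the 2167 genes with a mean under 0.6, however, all 2167 means were sums of whole reads from 8 libraries within 2e-06, although values within that tolerance of such a sum fill only 0.734% of this range. With any library left out, at most 77.5% of these means could be written as such a sum. The mean therefore averages as many libraries as the series holds, and no value below belongs to 1 genotype or 1 subset. The relative depth (size factor) of 7 libraries lay between 0.796 and 1.05, and that of the other was 1.91. Which library is which sample was not known. Since no gene had replicate values, differences between genes were described and not tested, and the effect of lamin A/C loss was not analysed here. In sorted bulk cells, fewer cells of a type and less RNA per cell cannot be told apart.

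Markers of both sorted subsets were abundant in the mean. S100a9 had the highest mean of all genes (725556), and Ly6g (7853), Itgam (54060), Csf1r (22159) and Ly6c2 (14413) were present. Markers of other cells were present too: the B cell genes Cd79a and Ms4a1 (5923 and 5085), all 3 of the macrophage list (Adgre1, C1qa and Vcam1, 6749 to 20903), both T cell genes (Cd3e and Cd3g, 288 and 426) and the erythroid genes Hbb-bs and Hba-a1 (8580 and 4661). The part of these cells in the levels below was not tested. Lmna itself had a mean of 79.5 over wt and KO libraries, so its loss could not be checked per sample.

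To compare genes, each mean was divided by the length of the transcript in kb and scaled so that the levels of the 23004 genes with a known length sum to 1000000. Levels are given in these units (ppm). The length is the median over the protein-coding transcripts of a gene. The median level was 1.51 ppm over all genes and 6.36 ppm over the 15697 protein-coding genes.

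Subunits were abundant transcripts, and assembly factors and tissue isoforms were not. The 74 subunits had a median level of 76.8 ppm, and all 74 lay above the median of the table. So did 19 of the 21 assembly factors and 10392 of the 15697 protein-coding genes, so this count hardly sets subunits apart. Levels of subunits ran from 5.58 ppm (Ndufb2), under the median of protein-coding genes (6.36 ppm), to 245 ppm (Atp5l and Atp5b). Of the 74 subunits, 49 were in the top 10% of genes, against 0 of 21 assembly factors and 0 of 5 tissue isoforms. The median of the assembly factors was 5.8 ppm, close to that of protein-coding genes. Together the 103 members made up 0.673% of the summed level.

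**Figure D1:**
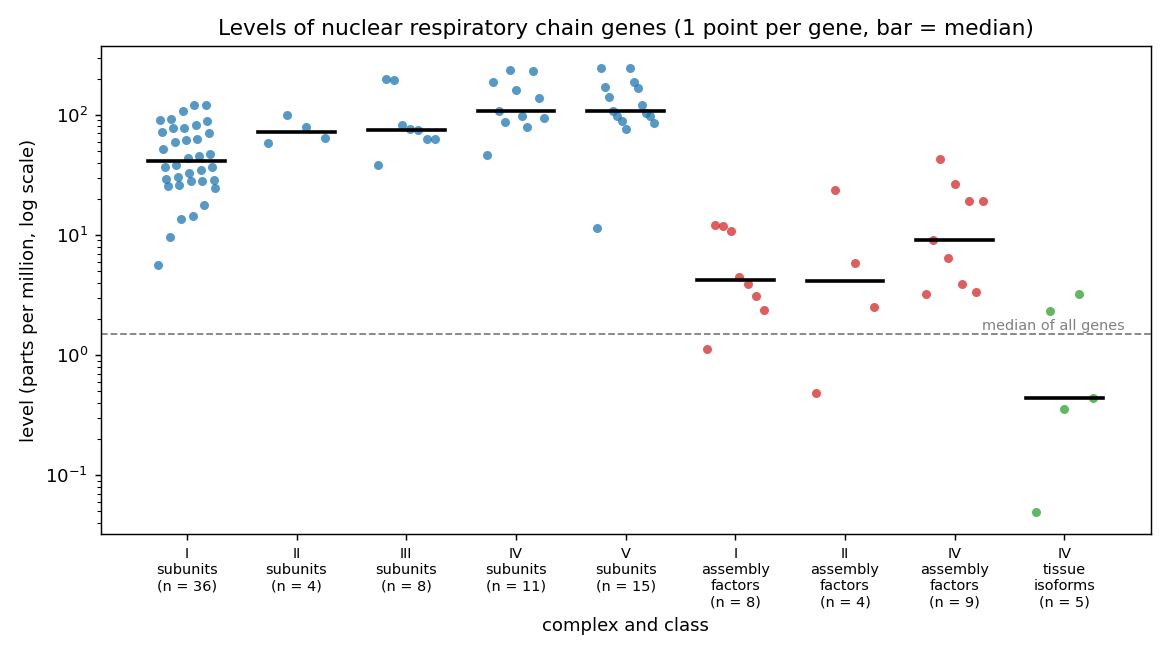
Level in ppm (log scale) of each nuclear gene by complex and class, 1 point per gene, with black bars for medians and a dashed line for the median of all genes (1.51 ppm). Subunits of complexes I to V have medians between 41 and 108 ppm, assembly factors between 4.15 and 9.12 ppm, and the 5 tissue isoforms of complex IV 0.441 ppm.

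The complexes differed in level. The median subunit stood at 41 ppm in complex I (n = 36 genes), 71.5 ppm in complex II (n = 4), 74.9 ppm in complex III (n = 8), 108 ppm in complex IV (n = 11) and 107 ppm in complex V (n = 15). The ranges overlapped: with the median coding transcript, the highest complex I subunit (Ndufb7, 121 ppm) lay above the median of complexes IV and V. The ratio of complex V to complex I medians was 2.62. It stayed between 2.14 and 3.41 under every alternative tried, and complex I had the lowest median in each of these. The order of complexes II to V depended on the length used. With the union of exons as the length, complex V fell from 107 to 77.1 ppm, near complexes II (71.4 ppm) and III (72 ppm).

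**Figure D2:**
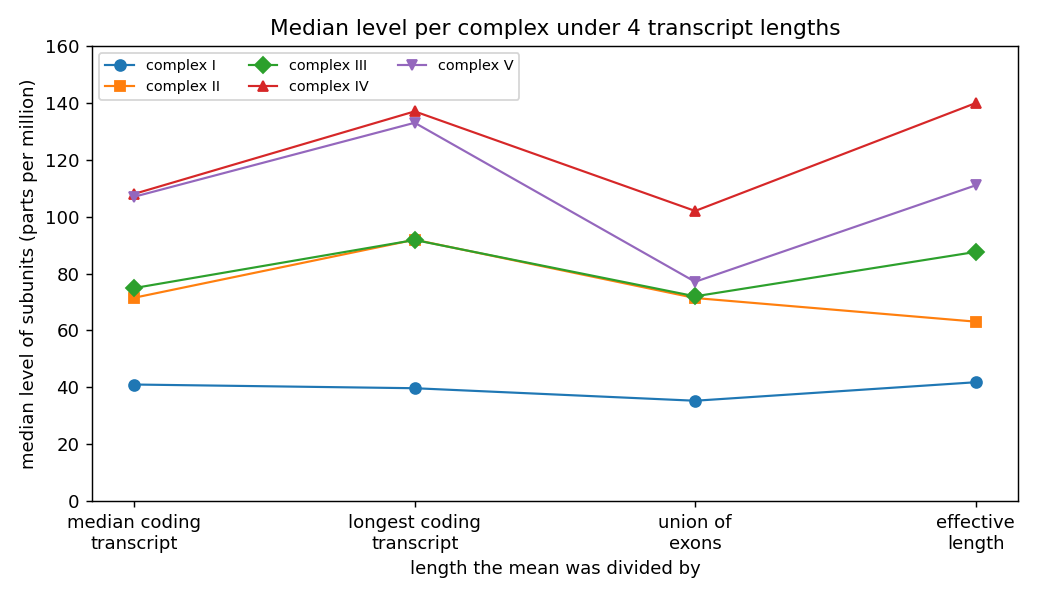
Median level of the subunits of each complex in ppm (linear scale from 0) when the mean signal was divided by 4 different transcript lengths, with lines joining the values of a complex. Complex I stays lowest at 35.3 to 41.8 ppm, complex IV is highest at 102 to 139.9 ppm, and complexes II and III lie between 63.1 and 91.9 ppm.

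Complex I takes electrons from NADH. Its 7 nuclear core subunits carry the flavin and the iron-sulfur clusters, and their median level was 38.6 ppm, against 43.5 ppm for the 29 accessory subunits. In the NADH module, Ndufv1, which binds FMN and accepts the electrons, stood at 28.8 ppm (mean signal 807). Ndufv2, which holds an iron-sulfur cluster, stood at 45.6 ppm (mean signal 724). Ndufs1, which carries further clusters of this module, was listed at 107 ppm (mean signal 1361). Its place as the highest core subunit rests on a short median transcript of 651 bases, and with the longest coding transcript its level was 38.1 ppm.

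In the quinone module, Ndufs7, which holds the last cluster before ubiquinone, stood at 38.6 ppm. Ndufs8, with clusters of the same module, stood at 30.3 ppm, and Ndufs3, a core subunit without a cluster, at 26 ppm. The medians of both modules were near each other, 45.6 ppm for the NADH module and 34.5 ppm for the quinone module.

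The accessory subunits of complex I spread more widely than its core. With the median coding transcript, Ndufb7 was highest at 121 ppm (mean signal 1475) and Ndufb2 lowest at 5.58 ppm (mean signal 263). The highest place depended on the length. With the union of exons Ndufb7 stood at 31.2 ppm and Ndufa1 was highest (155 ppm), and with an effective length Ndufa3 was (164 ppm). By mean signal Ndufa13 (1547) was highest. The Ndufb2 value goes with a long median transcript of 2413 bases, and the lowest accessory subunit by mean signal was Ndufc1 (146). Ndufab1, which is also the acyl carrier protein of mitochondria, stood at 24.5 ppm and at 10.1 ppm with the longest coding transcript. The 3 genes on the X chromosome were Ndufa1 (83 ppm), Ndufb11 (72 ppm) and, in complex IV, Cox7b (45.9 ppm). All other members are autosomal, with the most, 10, on chromosome 7.

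Complex II is the only complex whose subunits are all nuclear. Its 4 subunits lay close together and all 4 were in the top 10% of genes. Sdha, the flavoprotein that oxidises succinate, stood at 98.9 ppm (mean signal 3497). Sdhb, the iron-sulfur subunit, stood at 64.5 ppm (mean signal 1438). The membrane anchors Sdhd and Sdhc stood at 78.5 ppm (mean signal 1885) and 58.2 ppm (mean signal 925). Sdha was thus 1.7 times Sdhc by level and 3.78 times by mean signal. The level of Sdhc was 21.8 ppm with the longest coding transcript, so its place beside the other subunits depended on the length.

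In complex III, both core proteins and the hinge protein had the highest mean signals. Uqcrc1 was listed at 195 ppm (mean signal 2028) and Uqcrc2 at 82.1 ppm (mean signal 1890). The gap between these partners rested on length, since the longest coding transcript put them at 91.5 and 74.3 ppm. With the median coding transcript, Uqcrfs1, the Rieske iron-sulfur protein that passes electrons to cytochrome c1, was lowest at 38.3 ppm (mean signal 1020). Among accessory subunits, Uqcrh (the hinge protein) was highest at 199.7 ppm and Uqcrb lowest at 63.3 ppm. Both lowest places depended on the length. Uqcrq was lowest at 35.8 ppm with the longest coding transcript and at 38.2 ppm with the union of exons. Uqcrfs1 then stood at 55.8 and 71.7 ppm, and by mean signal Uqcr11 (552) was lowest. Uqcrh exceeded Uqcrfs1 5.21 times by level and 1.81 times by mean signal. Cyc1, the heme-bearing cytochrome c1 whose symbol falls outside the pattern, stood at 68.8 ppm, within the range of these subunits.

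The nuclear subunits of complex IV surround a catalytic core that mitochondrial DNA encodes. Of the 11 genes, 10 were in the top 10% of the table. Cox8a was highest at 236 ppm (mean signal 2536), and Cox4i1, which takes part in the regulation of the enzyme by ATP, followed at 230.3 ppm (mean signal 3349). Cox7b was lowest at 45.9 ppm (mean signal 896), but with the union of exons Cox6c was lowest (31.3 ppm). Ndufa4, named for complex I but placed in complex IV, stood at 108 ppm. Counting it in complex I moved the complex I median from 41 to 43.5 ppm. Cox7a2l, a relative of Cox7a2 that joins complexes III and IV in supercomplexes, stood at 152 ppm with a mean signal of 3261, close to the mean signal of Cox4i1.

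Complex V held the member with the highest mean signal. Atp5b, the catalytic beta subunit, had a mean signal of 9143 and a level of 245 ppm. Atp5a1, the alpha subunit that alternates with beta in equal number, had a mean signal of 7023 and a level of 139.9 ppm. The ratio of beta to alpha was 1.75 by level and 1.3 by mean signal. Their order depended on the length, since the union of exons put alpha at 215 ppm and beta at 207 ppm. In the central stalk, Atp5c1 (gamma) stood at 121 ppm, Atp5d (delta) at 85.5 ppm and Atp5e (epsilon) at 172 ppm. The high place of epsilon depended on the length: with the union of exons it stood at 77.1 ppm, against 119 ppm for gamma. Its mean signal (1414) lay under those of gamma (2370) and delta (1554). Beta, of which the enzyme holds several copies, exceeded gamma, of which it holds 1, 2.01 times by level and 3.86 times by mean signal. The 4 peripheral stalk genes had a median of 135 ppm, from 76.3 ppm (Atp5o) to 187 ppm (Atp5f1). With the union of exons they ran from 44.3 ppm (Atp5j) to 133 ppm (Atp5h).

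The membrane subunit Atp5l shared the top level with Atp5b at 245 ppm, but from a mean signal of 2599. Its level was 38.6 ppm when the union of exons was taken as its length. The ring that carries protons is built from copies of subunit c, which is encoded by 3 genes whose mature proteins are the same. Atp5g2 and Atp5g3 stood at 98.1 and 97.6 ppm, and Atp5g1 at 11.4 ppm. By share of the summed level, Atp5g2 held 47.4%, Atp5g3 47.1% and Atp5g1 5.51%. The low share of Atp5g1 goes with a median transcript of 2675.5 bases. Without length scaling its share was 18.2%, with mean signals of 596 for Atp5g1, 1308 for Atp5g2 and 1369 for Atp5g3. Atp5g1 was the lowest of the 3 by either measure.

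Several places of complex IV can be filled by either of a pair of paralogues, 1 of them broadly expressed and the other known from particular tissues. In these cells the broadly expressed gene made up nearly all of each pair. The 5 tissue isoforms listed in the table held 0.831% of the summed level of their pairs. Cox4i2, the lung isoform of Cox4i1, had a mean signal of 5.03, which is 0.153% of the pair and 652 times less than Cox4i1 by level. Cox6a2, known from heart and skeletal muscle, had a mean signal of 31 and a share of 1.43% beside Cox6a1 (161 ppm). Cox6b2, known from testis, had a mean signal of 27.6 and a share of 1.69% beside Cox6b1 (189 ppm). Cox7a1, known from heart and skeletal muscle, had a mean signal of 3.78 and a share of 0.557% beside Cox7a2 (78.8 ppm).

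The lowest member was Ndufa4l2, the paralogue of Ndufa4 that is known to be induced in low oxygen. Its mean signal of 0.899 could be written in only 1 way as whole reads, namely 7 reads in all, spread over 4 of the 8 libraries. This was 0.0458% of its pair. For Cox4i2 the mean stands for 33 to 77 reads over the 8 libraries together, and for Cox7a1 for 25 to 57 reads. These counts are small enough that a share can be moved by a few reads, and no interval was given because reads per library were unknown. Cox7b2, Cox8b and Cox8c, the tissue isoforms of Cox7b and Cox8a, have no row in the table.

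**Figure D3:**
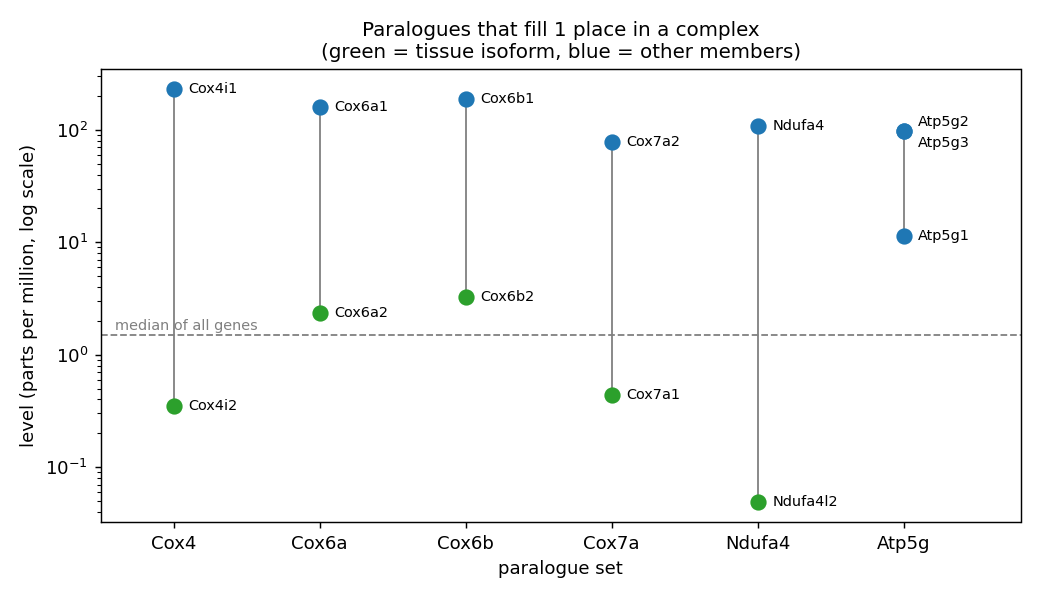
Level in ppm (log scale) of each paralogue, joined by a line within a set, with tissue isoforms in green and the other genes in blue; the dashed line is the median of all genes. Cox6a2 and Cox6b2 lie just above that median (2.33 and 3.25 ppm), Cox4i2, Cox7a1 and Ndufa4l2 lie under it (0.353, 0.441 and 0.0493 ppm), and the subunit c genes lie at 11.4 to 98.1 ppm.

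Assembly factors were listed well under the subunits they help to join. The ratio of the median subunit to the median assembly factor was 9.78 in complex I (8 factors), 17.2 in complex II (4 factors) and 11.8 in complex IV (9 factors). No assembly factor among the members reached the median subunit of its complex under any of the 5 length settings. With the median coding transcript, all 13 factors of complexes II and IV lay under the lowest subunit, and in complex I 5 of 8 did. By mean signal, Sdhaf2 (982) lay above Sdhc (925), and Cox17 (1081) above Cox7b (896), Cox7c (913), Ndufa4 (967) and Cox7a2 (1013). With the union of exons, Cox14 (80.9 ppm) lay above Cox6c (31.3 ppm), Cox5a (53.9 ppm), Ndufa4 (67 ppm), Cox7b (70.7 ppm) and Cox7c (77.3 ppm). With an effective length, Cox14 (43.9 ppm) lay above Cox7b (42.1 ppm). In complex I, 3 to 6 of the 8 factors lay under the lowest subunit, depending on the length. Transcripts of assembly factors were longer, with a median of 1315 bases against 671 for subunits. Without length scaling the ratios were 5.23, 16.7 and 4.76, so the direction held while the ratio in complexes I and IV was smaller. With the union of exons the ratio was 6.22 in complex I and 10.8 in complex II, and with an effective length it was 18 in complex IV.

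Among complex I factors, Ndufaf8 was highest at 12.1 ppm and Ndufaf6 lowest at 1.13 ppm. Ndufaf7 was near Ndufaf8 at 11.9 ppm and had a higher mean signal (305 against 142). With the union of exons Ndufaf2 was lowest (1.36 ppm). The factors of complex II spread most: Sdhaf2, which helps to insert the flavin into Sdha, stood at 23.9 ppm, 49.1 times Sdhaf3 at 0.487 ppm. By mean signal the ratio was 23.9, as the median transcript of Sdhaf3 was 4323 bases long. In complex IV, Cox14, which takes part in the early assembly of the mitochondrial-encoded subunit 1, was highest at 43.3 ppm. Cox10, which farnesylates heme on the way to heme A, was lowest at 3.25 ppm, near Cox18 (3.32 ppm). This place depended on the length: with the union of exons Cox18 was lowest (3.02 ppm). By mean signal Cox11 (76) was lowest, and Cox10 had 185. Cox17, the copper chaperone, had the highest mean signal of the 21 assembly factors (1081) but a level of 26.8 ppm. Atp5s, a coupling factor, stood at 2.49 ppm. Atp5sl, named after it but required for building complex I, stood at 13.8 ppm.

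By level with the median coding transcript, genes of the same pathway with other symbols showed the same division. Of 27 further assembly factors, 0 were in the top 10% of genes and 22 lay above the median of the table. Above that median also lay 10392 of the 15697 protein-coding genes. The median of the 27 factors was 7.64 ppm, from 0.205 ppm (Pet117) to 45.5 ppm (Coa3), both factors of complex IV. By mean signal the division did not hold for Coa5, another factor of complex IV (31.3 ppm). Its mean signal of 2363 lay above the median subunit of that complex (1183). For complex III, whose assembly factors carry no symbol of the pattern, 6 such genes had a median of 10.6 ppm against 74.9 ppm for the subunits. Atpif1, the inhibitor of ATP synthase, stood at 71.2 ppm, and the small membrane subunits listed as Usmg5 and 2010107E04Rik stood at 54.8 and 61.1 ppm. Cycs, the soluble carrier between complexes III and IV, stood at 16.9 ppm, under all nuclear subunits of both complexes by level. By mean signal (1030) it lay above 9 of these 19 subunits.

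Transcripts of the 13 subunits encoded by mitochondrial DNA were far more abundant than those of their nuclear partners. They held 4.99% of the summed level and ran from 389 ppm (mt-Nd4l) to 16459 ppm (mt-Co1), so that even the lowest level was above that of the highest nuclear subunit (245 ppm). By mean signal, 2 of the 13, mt-Nd4l (2257) and mt-Nd3 (2858), lay under the highest nuclear subunit (Atp5b, 9143). The summed mitochondrial level exceeded the summed nuclear level 6.33 times in complex I, 6.59 times in complex III, 18.2 times in complex IV and 3.3 times in complex V. Some of these genes overlap on the mitochondrial genome, and the authors' handling of strand is not given in the sources used here, so the values of single mitochondrial genes are uncertain.

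**Figure D4:**
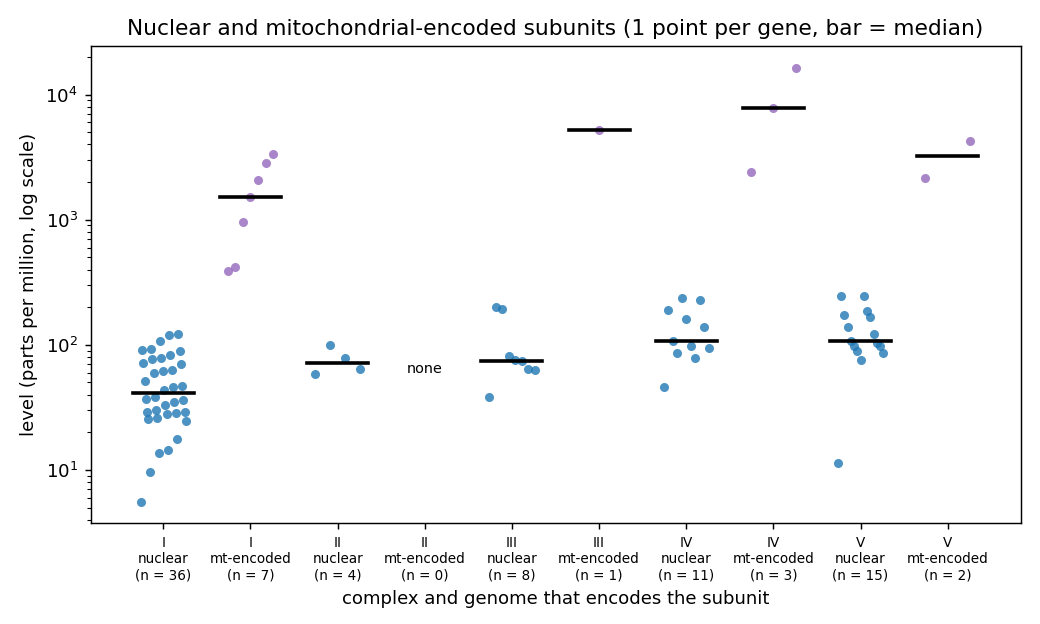
Level in ppm (log scale) of nuclear (blue) and mitochondrial-encoded (purple) subunits of each complex, 1 point per gene, with black bars for medians. The 13 mitochondrial-encoded subunits lie at 389 to 16459 ppm and the 74 nuclear ones at 5.58 to 245 ppm, with no overlap, and complex II has no mitochondrial-encoded subunit.

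The members share features that the choice by symbol did not use. Subunits had short transcripts: 56 of 74 (75.7%) were under 1000 bases, against 18% of protein-coding genes. Some also have processed pseudogenes, copies in the genome that arose from their mRNA. Of 2635 processed pseudogenes in the table, 36 had a member as their closest match at 95% identity or more, and these belonged to 22 members. Such a copy was listed for 20 of the 74 subunits (27%), against 4.89% of the protein-coding genes and 11.8% of those in the top 25% of levels. Their signal was small beside the parent gene except for Ndufb4, whose 1 near-identical copy had a mean of 94.3 against 333 for the gene (28.3%). The next was Ndufa12 with 7.39%, and the 8 copies of Atp5l summed to 2.08%. Reads from a gene and such a copy may be shared between them, so the level of Ndufb4 (17.6 ppm) is uncertain.

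Promoters were searched for the cores of sites of NRF1, of the ETS family (to which GABPA belongs) and of YY1, which are factors known to act at nuclear genes of the respiratory chain, and for a TATA box. The letters searched were GCATGCGC for NRF1, CCGGAAG for ETS, AAGATGGC for YY1 and TATAAA for the TATA box, on either strand. The window held 250 bases before and 50 bases after the start of the gene in RefSeq (GRCm38.p6). A promoter was found for 86 of the 103 members and for 12309 protein-coding genes of the table. The NRF1 core was held by 14% of the members (12 genes) and 4.78% of the protein-coding genes. The ETS core was held by 29.1% (25 genes) and 16.1%. The YY1 core was held by 15.1% (13 genes) and 4.11%. The TATA box was held by 8.14% (7 genes) and 8.37%. Over all 32851 promoters of the RefSeq table, the shares were 2.71% for NRF1, 8.86% for ETS, 2.75% for YY1 and 13.6% for the TATA box.

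The shares were also read against genes of high level. In the 3204 protein-coding genes with a promoter whose level was at least 26.6 ppm (the top 25%), NRF1 stood at 5.37%, ETS at 19.5% and YY1 at 4.96%. The ETS share of the 63 subunits (23.8%) was near that value. The higher ETS share of the members came with the assembly factors, of which 10 of 18 (55.6%) held the core. At least 1 of the 3 cores was present in 42 members (48.8%), against 22.9% of protein-coding genes and 27.2% of the top 25%. The median GC content of the members' promoters was 59%, against 60%. These shares are descriptions, and a match to a core is not evidence of binding.

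The following windows, from 100 bases before to 30 bases after the start, show these matches in subunits of high level. They are written in the direction of the gene, 5′ to 3′, and the capitals mark the matched cores. For NRF1, the subunits were Atp5g2, Ndufa6 and Atp5k, at 98.1, 93.2 and 88.5 ppm. In Atp5g2 and Atp5k the letters match on both strands with an overlap, and Atp5k also holds an ETS core after its start.
Atp5g2, chr15:102671018-102671147, minus strand: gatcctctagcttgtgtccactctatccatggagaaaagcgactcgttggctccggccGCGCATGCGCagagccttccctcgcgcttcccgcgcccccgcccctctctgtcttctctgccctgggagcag
Ndufa6, chr15:82354262-82354391, minus strand: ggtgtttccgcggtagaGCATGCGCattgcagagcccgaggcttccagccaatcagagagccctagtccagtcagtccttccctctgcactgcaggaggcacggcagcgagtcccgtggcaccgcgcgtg
Atp5k, chr5:108434370-108434499, minus strand: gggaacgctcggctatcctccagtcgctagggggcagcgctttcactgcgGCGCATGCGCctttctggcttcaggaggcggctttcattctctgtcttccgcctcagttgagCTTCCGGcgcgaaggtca

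For ETS, the highest subunits with a core in this window were Cox8a (236 ppm), Uqcrh (199.7 ppm) and Cox6b1 (189 ppm). In each the core lies on the strand opposite to the gene and within 28 bases before the start or across it.
Cox8a, chr19:7217587-7217716, minus strand: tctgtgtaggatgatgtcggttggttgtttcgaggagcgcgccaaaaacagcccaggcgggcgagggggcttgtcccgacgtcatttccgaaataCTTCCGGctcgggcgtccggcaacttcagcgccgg
Uqcrh, chr4:116075041-116075170, minus strand: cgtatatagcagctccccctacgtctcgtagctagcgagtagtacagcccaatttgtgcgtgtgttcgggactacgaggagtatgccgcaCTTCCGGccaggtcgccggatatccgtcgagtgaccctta
Cox6b1, chr7:30626085-30626214, minus strand: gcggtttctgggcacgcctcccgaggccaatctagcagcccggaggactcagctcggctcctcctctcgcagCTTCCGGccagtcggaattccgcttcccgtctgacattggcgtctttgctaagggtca

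For YY1, Atp5f1 (187 ppm) holds the core across its start on the opposite strand, and Ndufa3 (119.8 ppm) holds it at bases 23 to 30 after the start.
Atp5f1, chr3:105959234-105959363, minus strand: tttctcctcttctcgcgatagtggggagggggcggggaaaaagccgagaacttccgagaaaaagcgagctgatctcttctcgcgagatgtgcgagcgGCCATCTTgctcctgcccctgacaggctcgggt
Ndufa3, chr7:3617273-3617402, plus strand: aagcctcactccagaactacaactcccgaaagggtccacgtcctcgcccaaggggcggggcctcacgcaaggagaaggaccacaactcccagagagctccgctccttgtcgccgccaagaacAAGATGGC

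The YY1 matches had a place of their own. In 10 of the 13 members the letters lay only after the start, and with windows that ended at the start the share was 2.33% of the members and 1.8% of protein-coding genes. The letters contain ATG. In 9 of the 13 members, Ndufa3 among them, this ATG is an annotated start codon, as it is in 160 of the 506 protein-coding genes with the core. The letters of the YY1 core and those around a start codon could therefore not be told apart in these genes. For NRF1 and ETS the shares upstream of the start were 10.5% and 20.9% of the members, against 3.99% and 12.4%. RefSeq and GENCODE starts lay a median of 23 bases apart, and over 500 bases apart in 7 members, Atp5g2 (1305 bases) and Atp5f1 (836 bases) among them.

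Members often stood head to head with another gene. A protein-coding gene on the opposite strand started within 1000 bases of the start of 26 of the 103 members (25.2%), against 9.73% of the 15697 protein-coding genes and 9.45% of those in the top 25% of levels. The share was 24.3% in subunits and 33.3% in assembly factors. Sdhd lies 98 bases from Timm8b, a chaperone of mitochondrial import (78.5 and 36.6 ppm). Ndufa7 lies 80 bases from the ribosomal protein gene Rps28 (90.9 and 406 ppm). Cox4i1 lies 101 bases from Emc8 (230.3 and 46.4 ppm), and Atp5a1 lies 70 bases from Haus1 (139.9 and 4.29 ppm). The partners' levels thus ran from far under to above those of the members. Cox15 and Cutc overlap at their starts, as do Ndufs3 and Kbtbd4, so reads at these ends could be shared between the genes.

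**Figure D5:**
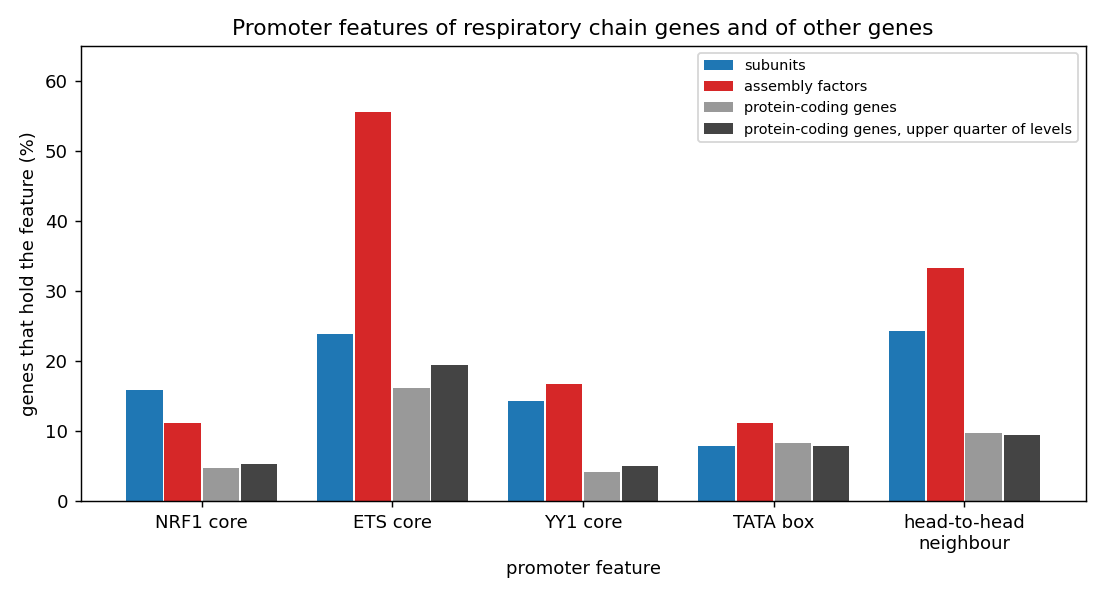
Percent of genes (linear scale from 0) whose promoter window holds each core, or that have a head-to-head neighbour within 1000 bases, for subunits (blue), assembly factors (red), protein-coding genes of the table (light grey) and those in the top 25% of levels (dark grey). The NRF1, YY1 and neighbour bars of subunits (15.9%, 14.3% and 24.3%) stand above both grey bars, the ETS bar of assembly factors is 55.6%, and the TATA box bars lie between 7.83% and 11.1%. With windows that end at the start, the YY1 share is 0% of subunits, 1.8% of protein-coding genes and 1.94% of the top 25%. In 8 of the 9 subunits with the YY1 letters, their ATG is an annotated start codon.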

How the data were processed

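Total RNA of 8 samples was sequenced (standard Illumina libraries). In the authors' pipeline, Cutadapt 1.14 removed adapters, STAR 2.5.2b (2-pass mode) mapped the reads to mm10, RSEM 1.3.0 quantified the genes of GENCODE M12, and DESeq2 1.20.0 made the deposited table. For each gene the table gives a mean signal, which the authors computed from size-factor-normalized counts. Its other columns hold the authors' own comparison of KO and wt cells of the CD11b+Ly6C+ subset (log2 fold change, its standard error, Wald statistic, p-value, adjusted p-value and signed fold change) and were not used here. There were 0 columns of single samples, so no differential test was possible from the table, depth per sample is unknown, and precision is that of a pooled mean without error.

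Lengths and positions came from GENCODE M21 on the same build, which matched 23004 of 23084 identifiers. Promoters were matched to RefSeq by symbol or synonym, taking the start nearest to that of the longest coding transcript. Low means were solved as sums of whole reads, a step added after the data were seen and tested on simulated data (8 of 8 simulated libraries recovered from 22480 genes). Processed pseudogenes were assigned by blastn to the closest coding gene of the table (at least 95% identity over at least 50% of their length). Effective length (the median coding transcript less 200 bases, at least 100) was added after the data were seen. The members and lists were chosen with earlier results of these data known. Named genes were the core subunits of complexes I to III, the catalytic, stalk and proton-channel genes of complex V, the highest and lowest accessory subunit and assembly factor of each complex, all paralogues, members with a mean under 10 and the 3 other genes. A few genes of these lists are not reported here. Cox17, X-linked genes, genes of printed promoters, parents of pseudogenes and head-to-head neighbours were named after their values were seen. Python 3.11.15, numpy 2.4.6, pandas 2.3.3, scipy 1.17.1 and matplotlib 3.10.9 were used.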

Additional observations from a re-analysis of the deposited data

How the results depend on the processing

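No test was run. Ratios of levels and the share of tissue isoforms are given here where they moved by over 10%, and promoter shares where they left their 95% exact binomial interval. The ratio of complex V to complex I subunit medians, 2.62 as reported, was 3.36 with the longest coding transcript, 2.19 with the union of exons, 2.14 without length scaling and 3.41 with paralogues of a set summed. The share of tissue isoforms, 0.831%, was 0.93% with the union of exons and 0.722% when members with a mean under 10 were left out. For complexes I, II and IV in turn, the ratio of subunits to assembly factors was 7.17, 15.2 and 14.8 with the longest coding transcript, and 6.22, 10.8 and 15.2 with the union of exons. Without length scaling it was 5.23 in complex I and 4.76 in complex IV, and with an effective length, an alternative chosen after seeing the data, 18 in complex IV. Only upstream of the start, the YY1 share was 2.33%, outside its interval of 8.3% to 24.5%, by the loss of matches after the start. The shares of NRF1 (10.5%), ETS (20.9%) and the TATA box (6.98%) fell too but stayed within theirs. Upstream of the start, NRF1 went from 12 to 9 genes, ETS from 25 to 18 and the TATA box from 7 to 6. These intervals treat genes as independent draws and do not measure a change of window in the same promoters. Of 67 further values for single complexes and genes, 38 moved by at most 10% and 29 by more, leaving out the medians per complex without length scaling, which are in another unit. Neither the ratio of complex V to complex I nor any ratio of subunits to assembly factors changed direction. No paired analysis was possible because only a pooled mean was used. Likewise, leaving out replicates, other size factors and the filter on low counts were not run. Depth per library is known only as size factors that could not be matched to samples. The pooled mean has no error, so differences between genes of less than the effect of the length chosen cannot be told from none.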
